A study of Mus musculus with 12 samples.

Results

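Extracellular ATP is cut to AMP by the ectonucleotidase CD39, which Entpd1 encodes, and AMP is cut to adenosine by CD73, which Nt5e encodes. Adenosine acts on T cells through the receptor that Adora2a encodes and is removed by adenosine deaminase, the product of Ada. Inside the cell the AMP deaminases Ampd1, Ampd2 and Ampd3 convert AMP to IMP, and purine nucleoside phosphorylase, the product of Pnp, splits inosine and guanosine into base and sugar phosphate. Both ectoenzymes are well known on regulatory T (Treg) cells, which express Foxp3 and hold immune responses in check. These 8 genes were taken as a list of names, and all 8 were among the 55453 genes of the count table. The list was selected on knowledge of the log2 differences between knockout and floxed libraries, so those values are given as a description.

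The study sequenced RNA of CD4+Foxp3+ regulatory T cells sorted from untreated C57BL/6 mice that had or lacked CNS4, a distal enhancer of Foxp3. The 12 libraries formed 4 groups of 3, males labelled CNS4 floxed (wild type), males labelled CNS4 knockout, females labelled CNS4 floxed heterozygotes and females labelled CNS4 knockout heterozygotes. The mice were matched for age, which was not given, and the deletion, the Cre that made it and the second allele of the females were not described. Organ was not spelled out, although the sample titles hold the letters Thy and the series title speaks of thymic cells. Whether a library stands for 1 animal was not stated, and the p-values cover only the variation among these samples.

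Each library held between 12423335 and 30244505 gene counts, the most in male knockout library 3. Plus-strand genes took 95.8 to 97.2% of a library's protein-coding reads, and this touched the list directly, because Ada and Ampd2 lie on the minus strand. Foxp3 itself was counted at 2227 to 2675 CPM (read counts divided by the library size after TMM adjustment) in the floxed males and at 1462 to 2037 in the knockout males. It stood at 2582 to 2658 CPM in the floxed females and at 685, 1824 and 825 in female knockout libraries 1, 2 and 3. Female knockout libraries 1 and 3 stood apart from library 2 in Foxp3. In each library, a gene's deviation in log2 CPM from its mean over the 12 libraries was also correlated with its GC content. Female knockout libraries 1 and 3 gave the lowest values, -0.35 and -0.26 against -0.10 in library 2 (Spearman's rho). The knockout values of Nt5e and Adora2a, which split along these libraries, are therefore given without libraries 1 and 3 as well. Counts per gene do not measure the enhancer, so the deletion itself was not checked here. The summed CPM of 6 genes of dividing cells was 620 to 842 in floxed males, 1082 to 1141 in knockout males, 640 to 750 in floxed females and 1157 to 1431 in knockout females. It was higher in every knockout library than in any floxed one. Most of this sum came from Mcm5 and Rrm1, with group means of 358.5 to 618.6 and 294.8 to 574.8 CPM. Mki67, Top2a and Ccnb1, on the thinly counted minus strand, averaged at most 10.2 CPM in any group. A list of 12 myeloid and dendritic genes summed to 101 to 1571 CPM in floxed males and 225 to 1695 in knockout males. It summed to 261 to 1096 CPM in floxed females and 812 to 1604 in knockout females. Of these 12 genes, 3 had under 10 reads in every library, and 5 lie on the thinly counted minus strand. Lists for B cells, erythroid cells, NK cells and thymic epithelium summed to at most 59.1 CPM in any library, with Klrb1c, Krt5 and Foxn1 at 0 in all 12. Those 3 genes and 5 of the 6 B cell genes lie on the thinly counted minus strand, so these sums say little about such cells. The 6 immature thymocyte genes, 2 of them on the minus strand, summed to between 165 and 651 CPM. The Treg list of Cd4, Cd3d, Cd3e, Foxp3, Il2ra, Ctla4, Ikzf2 and Tnfrsf18 summed to between 6864 and 9307 CPM. Of these, Cd4, Cd3e and Ikzf2 lie on the minus strand.

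Nt5e was the most abundant of the 6 members on the plus strand. Per kilobase of exon and averaged over the 12 libraries, Nt5e had 85.3 CPM, Adora2a 31.9, Entpd1 24.6, Pnp 7.55, Ampd3 4.09 and Ampd1 3.06. Nt5e was above Adora2a in 12 of 12 libraries, Entpd1 above Pnp in 12 and Pnp above Ampd3 in 12. Adora2a was above Entpd1 in only 9 of 12 libraries and Ampd3 above Ampd1 in 8 of 12, so neither pair of neighbours kept its order. Ada and Ampd2 had 0 to 17 and 1 to 12 reads per library, too few to rank.

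Entpd1 (ENSMUSG00000048120.16, chromosome 19) had 73.8, 83.4 and 110 CPM in male floxed libraries 1, 2 and 4 and 131, 150 and 142 in male knockout libraries 1 to 3. In the females it had 156, 96.2 and 116 CPM in the floxed libraries and 215, 163 and 211 in the knockout libraries. All knockout libraries were above all floxed libraries of their sex, by a narrow margin in the females. The log2 difference, knockout over floxed, was 0.66 (SE 0.20) in males, 0.68 (SE 0.20) in females and 0.67 (SE 0.14) over both sexes, a 1.59-fold higher level. Floxed female library 1, at 156 CPM, was also above every knockout male.

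RefSeq lists 2 start sites for Entpd1, both on the plus strand of chromosome 19. The 250 bases before each start are shown with those of Nt5e and Pnp, because Entpd1 and Pnp were the members with knockout libraries above floxed ones in both sexes and Nt5e had this in males only. They come from GRCm38.p6, whereas the counts were made on mm9. Capitals mark CG dinucleotides, which numbered 18 and 8 before the Entpd1 starts, 21 before Nt5e and 11 before Pnp.
Entpd1, chr19:40612116-40612365, plus strand: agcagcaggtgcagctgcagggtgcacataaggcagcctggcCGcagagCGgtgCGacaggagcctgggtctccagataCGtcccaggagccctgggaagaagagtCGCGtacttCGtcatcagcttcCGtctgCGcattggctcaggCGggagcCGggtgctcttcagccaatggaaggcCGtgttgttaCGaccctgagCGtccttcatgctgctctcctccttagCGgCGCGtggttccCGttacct
Entpd1, chr19:40659520-40659769, plus strand: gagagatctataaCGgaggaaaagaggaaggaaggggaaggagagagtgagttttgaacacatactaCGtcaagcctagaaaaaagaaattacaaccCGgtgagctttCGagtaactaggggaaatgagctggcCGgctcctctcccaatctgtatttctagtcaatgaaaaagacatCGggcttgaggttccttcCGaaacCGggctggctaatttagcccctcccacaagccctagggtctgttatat
Nt5e, chr9:88327359-88327608, plus strand: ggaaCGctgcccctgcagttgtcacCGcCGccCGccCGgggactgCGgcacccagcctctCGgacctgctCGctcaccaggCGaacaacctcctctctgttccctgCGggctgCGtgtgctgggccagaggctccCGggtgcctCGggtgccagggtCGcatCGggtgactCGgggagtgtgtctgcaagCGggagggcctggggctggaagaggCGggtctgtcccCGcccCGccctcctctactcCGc
Pnp, chr14:50944053-50944302, plus strand: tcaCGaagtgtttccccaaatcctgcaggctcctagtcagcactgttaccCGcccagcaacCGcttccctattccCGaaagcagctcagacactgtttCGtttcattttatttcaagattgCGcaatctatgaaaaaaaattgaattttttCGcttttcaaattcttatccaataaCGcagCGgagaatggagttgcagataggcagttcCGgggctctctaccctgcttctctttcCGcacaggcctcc

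GC content was 62.4 and 47.2% before the Entpd1 starts, 72% before Nt5e and 46.8% before Pnp. The sequences were searched on both strands for 5 motifs, the STAT5 motif TTCNNNGAA, the forkhead motif GTAAACA, the Runx motif TGTGGT, the CREB motif TGACGTCA and the E-box CACGTG. None of the 5 was in these 4 windows. Among 32851 RefSeq windows of the same length they were in 7.02, 3.17, 14, 1.55 and 6.02%. Of the 10 windows of the 6 members with an entry, 1 of Ada held TTCNNNGAA and 1 of Ampd3 held CACGTG. Adora2a and Ampd1 had no entry.

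Nt5e (ENSMUSG00000032420.8, chromosome 9) had the highest level of the 6 plus-strand members in every library. It had 680, 642 and 651 CPM in male floxed libraries 1, 2 and 4 and 1184, 864 and 1156 in male knockout libraries 1 to 3, so the male groups did not overlap. In the females the floxed libraries had 546, 650 and 643 CPM and the knockout libraries 428, 894 and 469. Opposite directions were thus present among the knockout females, with library 2 above every floxed female and libraries 1 and 3 below every one. The log2 difference was 0.70 (SE 0.25) in males, -0.04 (SE 0.25) in females and 0.33 (SE 0.17) over both sexes. Without female knockout library 2 the value over both sexes was 0.13 and that in females -0.44, and without libraries 1 and 3 together the value over both sexes was 0.62. The small female value turned to 0.036 when a trend on GC content and length was removed.

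Adora2a (ENSMUSG00000020178.6, chromosome 10) followed the pattern of Nt5e. It had 84.0, 73.5 and 115 CPM in male floxed libraries 1, 2 and 4 and 146, 131 and 154 in male knockout libraries 1 to 3. Floxed females had 78.0, 81.6 and 83.2 CPM and knockout females 55.8, 106 and 64.9, again with library 2 above and libraries 1 and 3 below all floxed females. The log2 difference was 0.66 (SE 0.23) in males, -0.10 (SE 0.23) in females and 0.28 (SE 0.17) over both sexes. Without female knockout library 2 the value over both sexes was 0.128 and that in females -0.41, and without libraries 1 and 3 together they were 0.52 and 0.39. Adora2a has the highest GC content of the 8 genes, 59.2%, and when a trend on GC content and length was removed from each library the female value changed sign to 0.63 and the value over both sexes became 0.71, the 1 of 20 alternative analyses in which Adora2a was called.

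**Figure D1:**
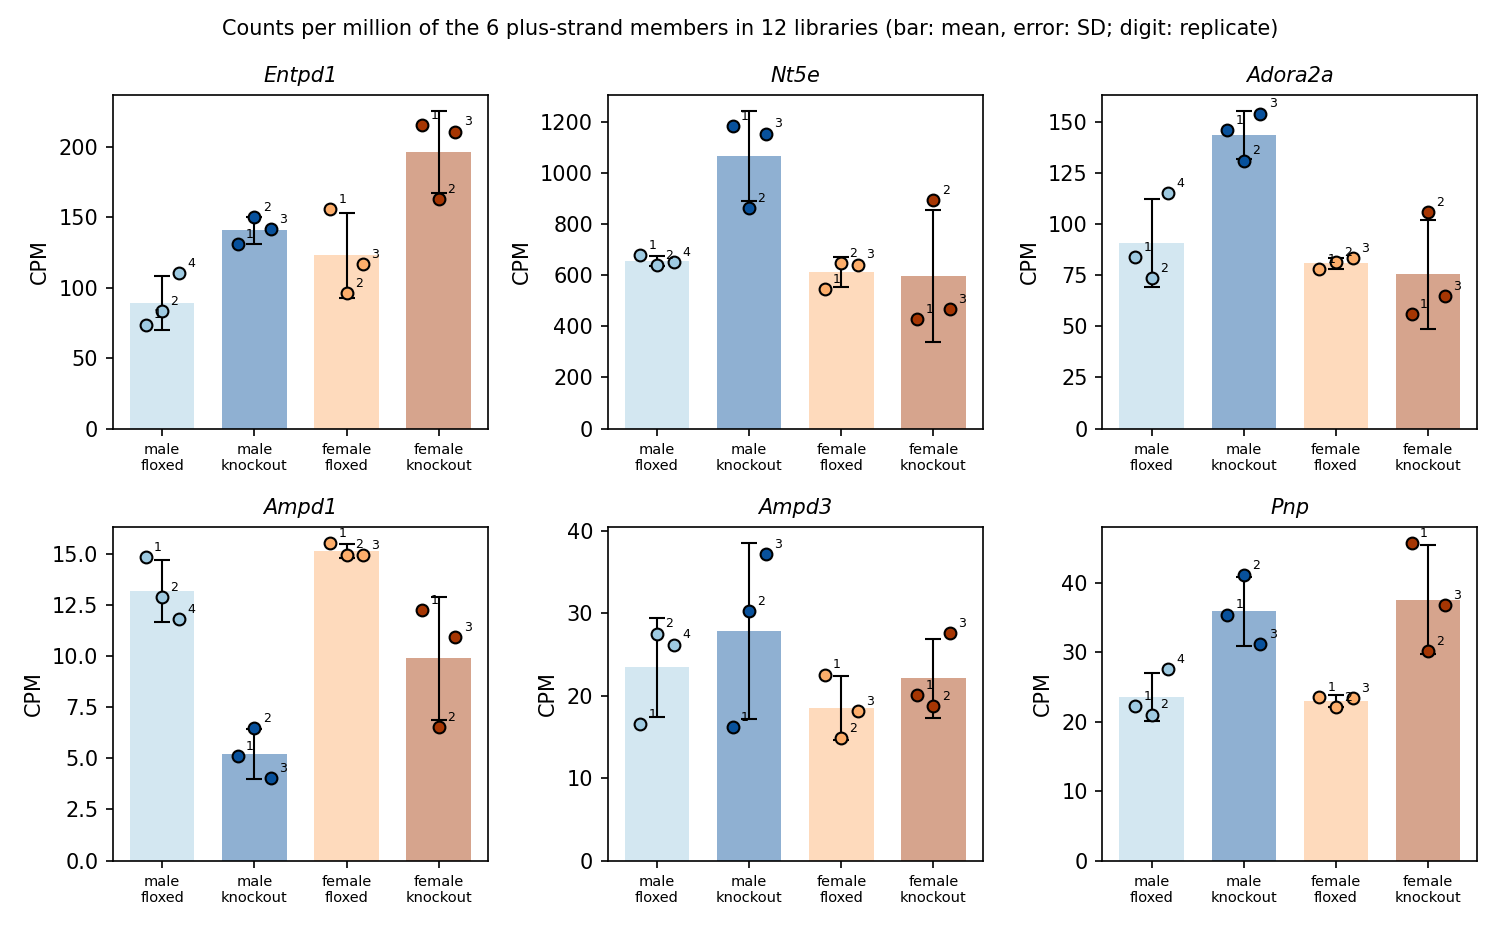
Library-scaled counts (CPM, y axis from 0) of the 6 members on the plus strand in the 4 groups; points are libraries marked with their replicate number, bars the mean and error lines the SD of 3 libraries. Entpd1 and Pnp are higher and Ampd1 lower in all knockout libraries of both sexes, while Nt5e and Adora2a are split among the knockout females, with library 2 high.

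Ampd1 (ENSMUSG00000070385.12, chromosome 3), an AMP deaminase best known from skeletal muscle, moved in the other direction. It had 14.8, 12.9 and 11.8 CPM in male floxed libraries 1, 2 and 4 and 5.10, 6.48 and 4.03 in male knockout libraries 1 to 3. Floxed females had 15.5, 14.95 and 14.94 CPM and knockout females 12.3, 6.51 and 10.9. Neither sex showed overlap, and female knockout library 2 lay with the knockout males rather than with the other knockout females. The log2 difference was -1.34 (SE 0.26) in males, -0.61 (SE 0.25) in females and -0.98 (SE 0.18) over both sexes, a level 0.508 of the floxed one. These values rest on 81 to 244 reads per library.

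Ampd3 (ENSMUSG00000005686.17, chromosome 7), the AMP deaminase known from red blood cells, showed no separation. Its libraries held 16.6, 27.6 and 26.2 CPM in floxed males, 16.2, 30.3 and 37.2 in knockout males, 22.6, 14.9 and 18.2 in floxed females and 20.04, 18.7 and 27.6 in knockout females. Both sexes gave overlapping groups and a log2 difference of 0.25 (SE 0.32). Of its 5627 exonic bases, 391 are also exonic on the other strand, in Rnf141 and B430319F04Rik.

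Pnp (ENSMUSG00000115338.2, chromosome 14) had 22.3, 21.03 and 27.5 CPM in male floxed libraries 1, 2 and 4 and 35.4, 41.1 and 31.2 in male knockout libraries 1 to 3. Floxed females had 23.5, 22.1 and 23.4 CPM and knockout females 45.8, 30.2 and 36.8. The knockout libraries were above the floxed libraries in both sexes, and the floxed groups of the sexes overlapped. The log2 difference was 0.60 (SE 0.19) in males, 0.71 (SE 0.19) in females and 0.66 (SE 0.14) over both sexes, 1.58-fold higher. Pnp is uncertain as a single gene, since 11% of its 50-base words are also in Pnp2, a neighbouring copy with only 2 to 23 reads per library, and 718 of its exonic bases are shared with the predicted gene Gm49342.

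Ada (ENSMUSG00000017697.3, chromosome 2) and Ampd2 (ENSMUSG00000027889.17, chromosome 3) could not be described beyond their low counts. Ada ranged from 0 to 1.03 CPM and was at 0 in male floxed library 2, where a count of 0 allows up to 0.233 CPM by counting error alone. Its log2 difference over both sexes was 0.03 (SE 0.66). Ampd2 ranged from 0.0604 to 0.456 CPM and did not pass the filter on low counts. Both are genes of the thinly counted strand, so these counts do not measure their abundance in the cells.

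Across the 7 members that passed the filter, edgeR's quasi-likelihood test, adjusted by Benjamini-Hochberg across 12411 genes, called 3 over both sexes, Entpd1 and Pnp higher and Ampd1 lower. Over all tested genes 3.31% were called, 2.68% as higher and 0.637% as lower. Within males 0 of 7 were called against 0.0242% of all genes, with 5 at an unadjusted p under 0.05 (8.12% of all genes) and 1 by DESeq2 (237 of all genes). Within females 0 of 7 were called against 0.201%, with 3 at an unadjusted p under 0.05 (19.2% of all genes) and 1 by DESeq2 (703 of all genes). Knockout and floxed libraries did not overlap for 5 members in males, where this held for 14.3% of all genes, and for 3 in females, where it held for 25%. Entpd1, Pnp and Ampd1 were apart in the same direction in both sexes, as were 5.75% of all genes. The median log2 difference of the 7 members over both sexes was 0.28, and that of all genes -0.02. Since the list was made with this comparison known, these counts carry no weight beyond describing it.

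The 3 calls differed in how far they depended on single libraries. Ampd1 was called in 16 of 20 alternative analyses, with log2 values from -1.28 to -0.86, and leaving out male floxed library 1, male knockout library 1, female floxed library 2 or female floxed library 3 ended its call, while values over all 12 such analyses ran from -1.09 to -0.86. Entpd1 was called in 10 of 20, with values from 0.53 to 0.77. Its call was lost without male floxed library 1 or 2, male knockout library 1 or 2, female floxed library 2 or 3, or female knockout library 1 or 3, while values over all 12 such analyses ran from 0.58 to 0.77. Pnp was called in 9 of 20, with values from 0.50 to 0.75, and was lost without any of the same 8 libraries or female floxed library 1, while values over these 12 analyses ran from 0.56 to 0.73. Both calls were also lost without female knockout libraries 1 and 3 together and with the GC and length trend removed. The direction was the same in all 20 analyses for the 3 genes. Levels of Entpd1 and Pnp also moved with the summed genes of dividing cells and with Foxp3, as given below, and the part of these in the differences was not tested. In bulk samples fewer cells that carry a gene and less of its RNA per cell cannot be told apart.

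**Figure D2:**
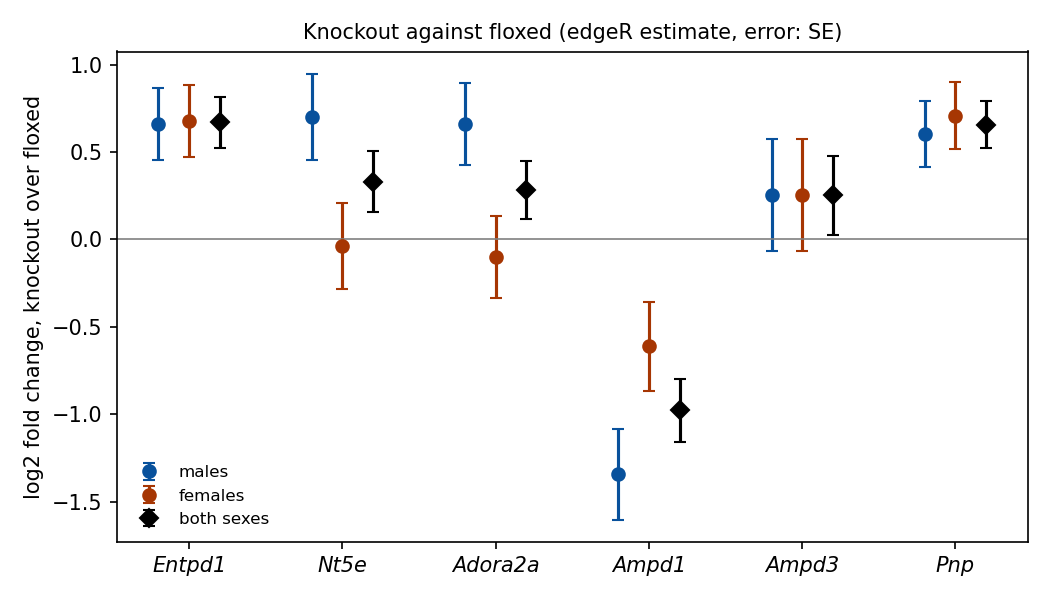
Log2 fold change of knockout over floxed (y axis) for 6 members in males, females and the mean of both, from edgeR; error lines are the SE. Entpd1 and Pnp lie between 0.60 and 0.71 in each sex, and Nt5e and Adora2a are 0.70 and 0.66 in males and -0.04 and -0.10 in females.

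Subtracting the male from the female comparison gave -0.76 (SE 0.33) for Adora2a, -0.74 (SE 0.35) for Nt5e and 0.73 (SE 0.36) for Ampd1, and between 0.00 and 0.11 for Entpd1, Pnp, Ada and Ampd3. None of the 7 members passed in edgeR's test of this difference, 1 was at an unadjusted p under 0.05 and DESeq2 called 0. Of all tested genes 0 were called (0%), with 339 (2.73%) at an unadjusted p under 0.05 and 0 by DESeq2. Without female knockout library 2 the difference was -1.152 for Nt5e and -1.09 for Adora2a and both were called. In that fit 1108 of 13029 genes were called, 1091 of them with a negative difference. The values of Nt5e and Adora2a thus rest on whether that library is in, as do the calls over all genes.

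Floxed females and floxed males gave a comparison that did not enter the choice of the genes. None of the 7 members passed edgeR's quasi-likelihood test after Benjamini-Hochberg adjustment, against 0.0322% of all genes. At an unadjusted p under 0.05 stood 1 member and 6.14% of all genes, and DESeq2 called 0 members and 59 of all genes. Entpd1 had the smallest p, with a female over male log2 difference of 0.46 (SE 0.20) and an adjusted p of 0.665. The other members stood at 0.20 (SE 0.25) for Ampd1, -0.04 (SE 0.19) for Pnp, -0.10 (SE 0.25) for Nt5e, -0.17 (SE 0.23) for Adora2a, -0.34 (SE 0.32) for Ampd3 and 1.05 (SE 0.91) for Ada. The signs for Pnp, Nt5e and Adora2a were not stable, as they turned when the GC and length trend was removed, a step that also moved the median of all genes in this comparison to 0.136. Ampd1 was the only member whose floxed groups did not overlap, at 11.8 to 14.8 CPM in males and 14.94 to 15.5 in females, and 25% of all genes were apart in this way.

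Across the 12 libraries some of the 15 pairs of 6 members moved together. Pearson's r of log2 CPM was 0.93 for Nt5e with Adora2a (Spearman's rho 0.94), 0.87 without the 2 libraries farthest from the median of Nt5e, and 0.80 after each library's group mean was subtracted. Nt5e and Ampd1 ran in opposite directions, with r of -0.82 (rho -0.63), -0.58 without those 2 libraries and -0.88 after subtraction of the group means. The knockout libraries show this, since among them female knockout library 1 had the lowest Nt5e and Adora2a and the highest Ampd1. The fall was not steady over all libraries, as most floxed libraries were above that library in both Nt5e and Ampd1. Entpd1 and Pnp gave r of 0.79 (rho 0.80), 0.72 without the 2 libraries farthest in Entpd1 and 0.63 within groups. Entpd1 and Nt5e, the successive enzymes of adenosine formation, gave r of -0.22 over the libraries (rho -0.27), -0.39 without those 2 and -0.60 within groups. These are descriptions over 12 libraries that share their groups, depth and GC bias.

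**Figure D3:**
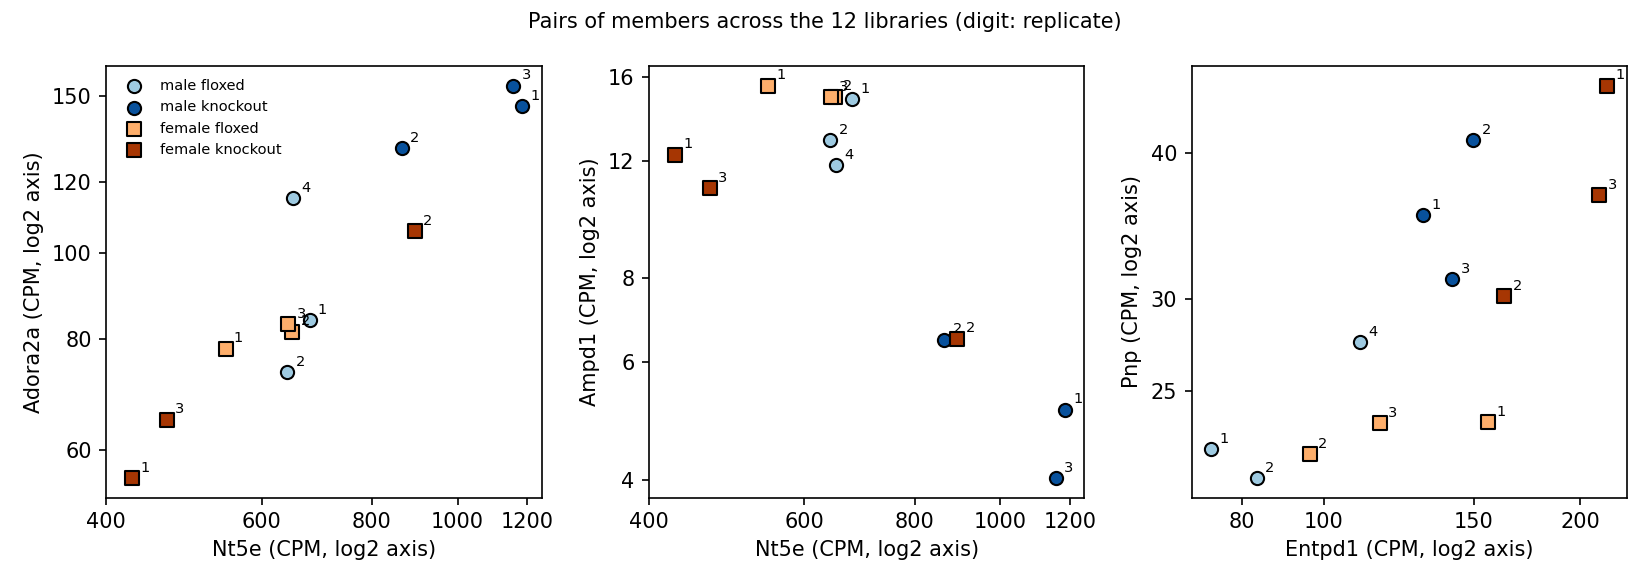
CPM of 3 pairs of members in the 12 libraries, both axes on a log2 scale; colour and shape give the group and digits the replicate. Nt5e and Adora2a lie along a rising line from female knockout library 1 to male knockout libraries 1 and 3, and Pnp rises with Entpd1. Ampd1 does not fall steadily with Nt5e. It is 12.3 and 10.9 CPM in female knockout libraries 1 and 3 and 11.8 to 15.5 in the floxed libraries. It is 4.03 to 6.51 in the male knockout libraries and female knockout library 2.

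The balance of Nt5e and Entpd1 RNA therefore differed between libraries, given here as ratios of CPM not divided by exon length. The enzymes themselves were not measured. Nt5e had 9.22, 7.69 and 5.91 times the CPM of Entpd1 in male floxed libraries 1, 2 and 4 and 9.05, 5.77 and 8.16 times in male knockout libraries 1 to 3. In floxed females the ratio was 3.50, 6.75 and 5.52, and in knockout females 1.99, 5.49 and 2.22. Mean ratios were 7.61 ± 1.65, 7.66 ± 1.70, 5.26 ± 1.64 and 3.23 ± 1.96 (SD, n = 3) in these 4 groups. The male groups covered the same range, and the 2 lowest ratios of all were in female knockout libraries 1 and 3.

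Members also moved with other measures of the libraries. Over the 12 libraries Entpd1 gave r of -0.81 with Foxp3 (rho -0.87, and r of -0.85 without the 2 libraries farthest from the median of Entpd1), and Pnp r of -0.87 (rho -0.92, and -0.82 without 2). With the summed genes of dividing cells, mostly Mcm5 and Rrm1, Entpd1 gave r of 0.87 (rho 0.82, and 0.85 without 2) and Pnp 0.92 (rho 0.87, and 0.94 without 2). With the summed myeloid and dendritic genes r was 0.60 for Entpd1 and 0.50 for Pnp, and 0.38 and 0.43 without 2 libraries. For the summed immature thymocyte genes it was 0.67 for Entpd1, 0.45 for Pnp and -0.62 for Nt5e, and 0.58, 0.42 and -0.50 without 2. For the percentage of counts in mitochondrial genes it was 0.69 for Entpd1, 0.59 for Pnp and -0.54 for Nt5e, and 0.71, 0.36 and -0.55 without 2. With Foxp3, Nt5e gave r of 0.38 (rho 0.084), Adora2a 0.33 (rho 0.056) and Ampd1 0.18 (rho 0.63), so the order of these 3 differed between the measures. With a library's correlation of deviations and GC content, described above, Entpd1 gave r of -0.69, Pnp -0.53, Adora2a 0.55 and Nt5e 0.46. Foxp3 and the dividing-cell genes also differed between the genotype groups in each sex. The correlation with GC content overlapped in males, at 0.13 to 0.35 in floxed and -0.08 to 0.31 in knockout libraries. In females it was -0.09 to 0.11 in floxed and -0.35 to -0.10 in knockout libraries. The parts of all these measures in the members' values were not tested.

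The genes whose log2 CPM was most like a member's were sought among 5359 genes by Pearson's r over the 12 libraries; Spearman's rho of those named was 0.75 to 0.97. For Entpd1 these were Atxn7l1 (r = 0.97), Blvra (0.96), which encodes biliverdin reductase A, and Rnase4 (0.95). After group means were subtracted they were Ctsa (0.96), which encodes the lysosomal cathepsin A, Slc35f6 (0.95) and Aar2 (0.94). Nt5e was most like the gene of carboxypeptidase M (0.97), Nrp1 (0.96), which encodes the surface receptor neuropilin-1 found on thymic Treg cells, and Cdc25b (0.96), a cell cycle phosphatase. Nrp1 led again within groups (0.98), before Ippk (0.98) and Phlpp1 (0.98). Ampd1 was most like Dennd2d (0.93), the stress-response factor Ddit3 (0.93) and Vmn2r97 (0.92), and within groups like Zfp563 (0.95), Ttc27 (0.94) and Ncapd3 (0.93).

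Other genes of purine handling were taken from a list of 89 in 6 groups, of which 88 were in the table and 53 passed the filter on low counts, 36 on the plus and 17 on the minus strand. Over both sexes 5 were higher and 1 lower in knockout (edgeR's quasi-likelihood test, adjusted by Benjamini-Hochberg), 11.3% of the 53 against 3.31% of all genes. The median log2 difference of the 53 was 0.15, and that of all genes -0.02. Within males 0 passed (0.0242% of all genes), with 8 at an unadjusted p under 0.05 (15.1%, against 8.12% of all genes). DESeq2 called 2 there, and 237 of all 12411 genes. Within females 0 passed (0.201% of all genes), with 17 at an unadjusted p under 0.05 (32.1%, against 19.2% of all genes). Here DESeq2 called 9, and 703 of all 12411 genes. Between floxed females and males 0 passed (0.0322% of all genes), with 4 at an unadjusted p under 0.05 (7.55%, against 6.14% of all genes). In this comparison DESeq2 called 0, and 59 of all 12411 genes. Without female knockout library 2 the count over both sexes was 19 of 56 tested, beside 2940 of 13029 genes called in all. It was 0 to 2 without male floxed library 1, male knockout library 1, female floxed library 2 or 3, or female knockout library 3. These last fits called 98 to 163 genes in all.

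Among 8 other ectonucleotidases and related surface enzymes, 1 rose, Cd38, which encodes an enzyme that breaks down NAD outside the cell. Cd38 had 62.5, 59.0 and 70.2 CPM in floxed males, 164, 144 and 122 in knockout males, 182, 84.7 and 109 in floxed females and 221, 198 and 278 in knockout females. Its groups did not overlap in either sex, and its log2 difference over both sexes was 1.03 (SE 0.18, adjusted p = 0.0156), the highest of the 6 called genes. Leaving out male floxed library 1, male knockout library 1, female floxed library 3 or female knockout library 3 ended the call, and adjusted p over all 12 such analyses ran from 0.00467 to 0.0646. Entpd6, an intracellular and secreted relative of Entpd1, was at 122 CPM on average with a difference of -0.36 (SE 0.15, adjusted p = 0.220). None of 6 adenosine receptors and nucleoside transporters passed, with 0 at an unadjusted p under 0.05 and 0 called by DESeq2. Slc28a2, a concentrating nucleoside transporter, averaged 394 CPM with a difference of 0.15 (SE 0.08), and Slc29a2, an equilibrative one, 7.17 CPM with -0.38 (SE 0.21).

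None of 7 genes listed by name as nucleotide receptors passed. Only P2ry10, whose place in this group rests on its name alone, was at an unadjusted p under 0.05. That was 14.3% of the 7, against 20.2% of all genes. P2rx7, the ATP-gated channel of T cells, averaged 334 CPM with a log2 difference of 0.22 (SE 0.13, adjusted p = 0.361), and P2ry10 averaged 297 CPM with 0.41 (SE 0.15, adjusted p = 0.165). DESeq2 called 0 of the 7.

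Salvage and breakdown genes held 3 of the 6 calls, with 3 higher and 0 lower of 14. Adk, whose kinase turns adenosine back into AMP, had 240 ± 7.49 CPM in floxed males, 307 ± 42.8 in knockout males, 282 ± 2.85 in floxed females and 419 ± 51.95 in knockout females (SD, n = 3). It rose by 0.46 on the log2 scale (SE 0.09, adjusted p = 0.0193). Hprt, which salvages hypoxanthine and guanine, had 235 ± 3.09, 329.9 ± 70.8, 278 ± 9.97 and 418 ± 51.9 CPM in the same order and rose by 0.54 (SE 0.11, adjusted p = 0.0243). Dck, the deoxycytidine kinase that also takes purine deoxynucleosides, had 269.6 ± 18.8, 348 ± 11.9, 247 ± 2.95 and 328 ± 29.9 CPM and rose by 0.39 (SE 0.07, adjusted p = 0.0168). All 3 had knockout libraries above floxed libraries in both sexes. Leaving out female floxed library 2 or 3, female knockout library 3, male floxed library 1 or male knockout library 1 ended each of the 3 calls. That of Adk was also lost without female floxed library 1, that of Dck without male knockout library 2, and that of Hprt without those, male floxed library 2 or female knockout library 1. The calls of Adk and Dck were also lost with the GC and length trend removed. Over the 12 analyses that leave out a library adjusted p ran from 0.00223 to 0.0724 for Adk, from 0.00441 to 0.0845 for Hprt and from 0.00486 to 0.0636 for Dck. Ahcyl2, the most abundant of the 14 at 1520 CPM, gave 0.10 (SE 0.12).

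**Figure D4:**
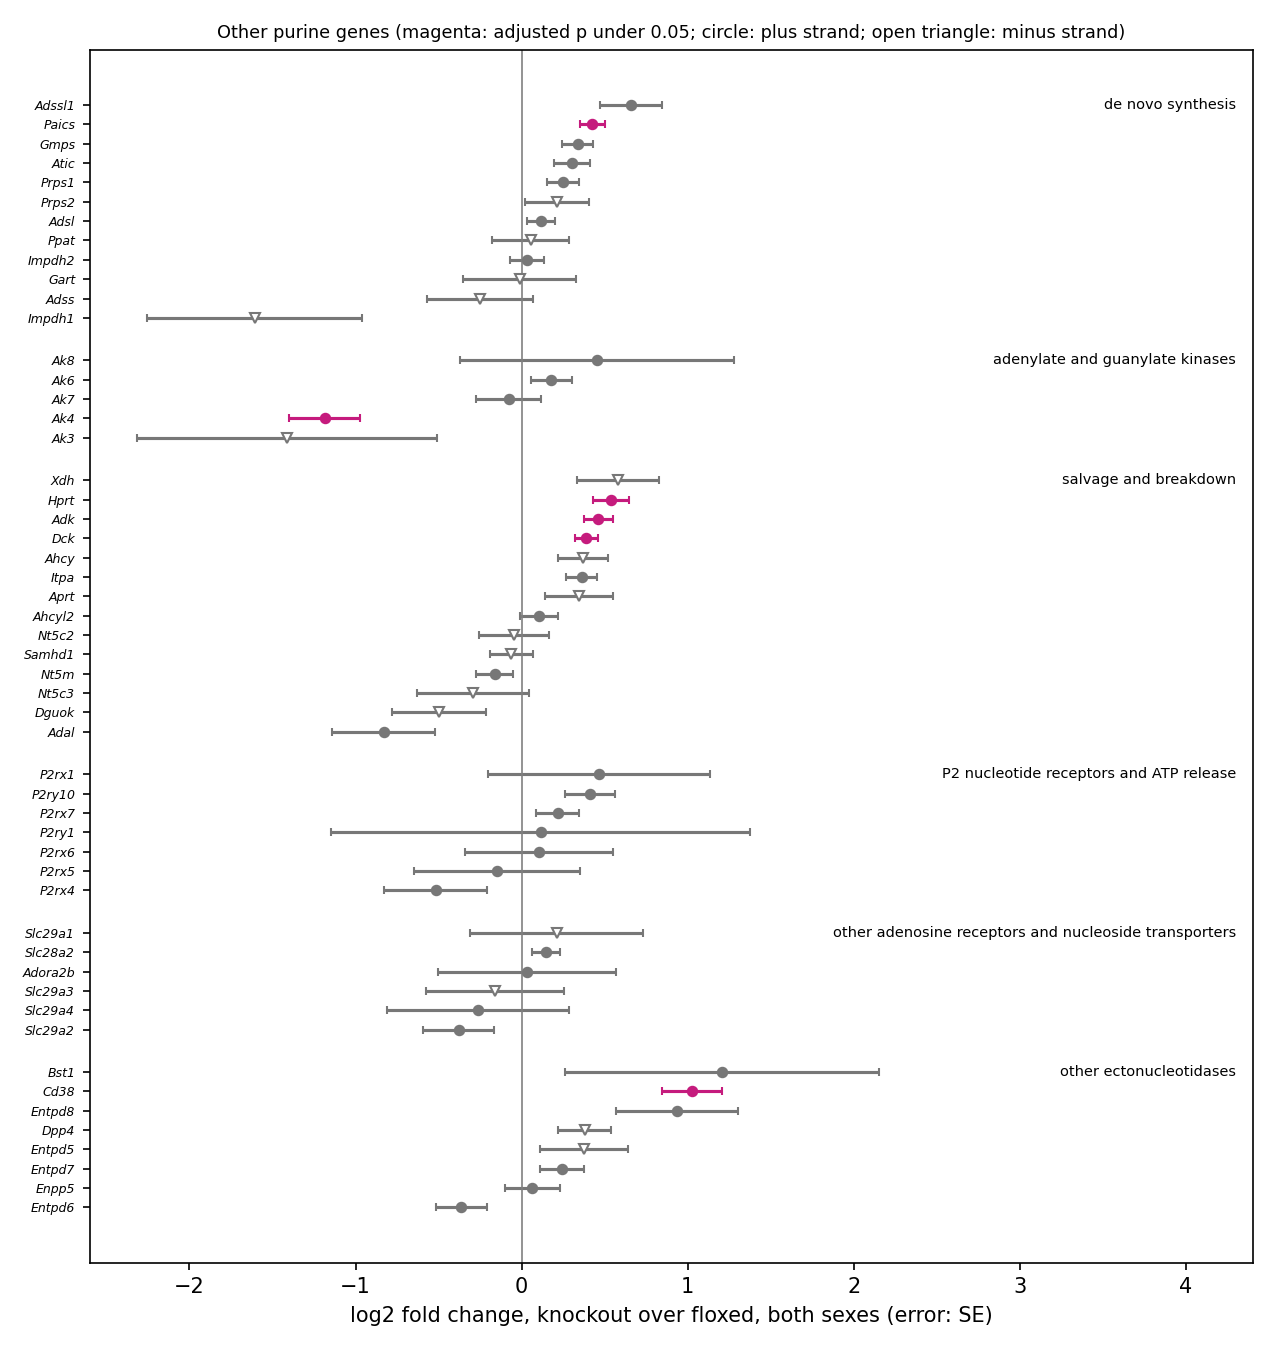
Log2 fold change of knockout over floxed over both sexes (x axis) for other purine genes in 6 groups, with the SE as error lines; magenta marks an adjusted p under 0.05, filled circles genes of the plus strand and open triangles genes of the minus strand. Cd38, Hprt, Adk, Paics and Dck lie to the right and Ak4 to the left.

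The 6 adenylate and guanylate kinases gave 0 higher and 1 lower. Ak4, a mitochondrial adenylate kinase, had 4.48, 4.346 and 5.43 CPM in floxed males and 4.53, 2.38 and 3.15 in knockout males, which overlapped. It had 2.70, 3.70 and 3.98 CPM in floxed females and 0.664, 1.22 and 0.959 in knockout females, which did not. Its log2 difference over both sexes was -1.19 (SE 0.22, adjusted p = 0.0175), on 11 to 83 reads per library. Without female floxed library 2 or 3 the call was lost, with adjusted p from 0.0038 to 0.0575 over the 12 analyses that leave out a library. Ak6 gave 0.18 (SE 0.12).

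De novo synthesis gave 1 higher and 0 lower of 12. Paics, which catalyses a pair of central steps in making the purine ring, had 263 ± 24.0 CPM in floxed males, 323 ± 4.80 in knockout males, 258 ± 8.24 in floxed females and 379.9 ± 33.7 in knockout females (SD, n = 3). It rose by 0.43 on the log2 scale (SE 0.07, adjusted p = 0.0133), with no overlap in either sex. The call was lost without male knockout library 1, female floxed library 2 or 3, or female knockout library 3, with adjusted p from 0.00204 to 0.0645 over the 12 such analyses. Adsl, the next enzyme of the route, averaged 296 CPM and gave 0.12 (SE 0.08, adjusted p = 0.441). Adk, Hprt, Dck and Paics are genes that dividing cells also use, and the dividing-cell genes were higher in every knockout library, as given above. Their part in these differences was not tested.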

How the data were processed

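RNA-seq was analysed from 12 libraries of sorted mouse Treg cells, made with the SMARTer Stranded kit, per the labels' protocols. The authors deposited raw read counts for each gene symbol. CASAVA, HTSeq 0.6.1p1 and STAR (2.5.2b and 2.3.0e) on mm9 are named, per the submitters' processing notes. The roles of the aligner versions, the annotation and the strand setting were not given in the sources used here, and the cause of the near absence of minus-strand genes was not tested. The 5 HTSeq summary entries entered neither library sizes nor tests. Reads that HTSeq assigned to no feature were 44.3 to 46.9% of a library. Whether these reads lie outside genes or in genes of the thinly counted strand was not tested. No 2 replicates agreed within counting noise, the chi-square being 5.38 to 171 per degree of freedom.

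The filter filterByExpr kept 12411 of 29806 genes with reads. TMM scaling and a quasi-likelihood fit of 4 group means to the 12 libraries were run in edgeR 4.0.16 (R 4.3.3). Contrasts set knockout against floxed within each sex and over the mean of both contrasts, floxed females with floxed males, and the female with the male contrast; the threshold was an adjusted p of 0.05. Correlations used log2 CPM with a prior count of 2. Alternatives were RLE size factors, DESeq2 1.42.0, no low-count filter, a minimum of 5 CPM in 3 libraries, a block for the replicate number, the libraries of 1 sex, each library left out, both female knockout libraries 1 and 3 left out, plus-strand genes, and removal of a smooth trend on GC and length from each library (mgcv 1.9.3).

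Gene IDs, strand, chromosome, exon length and GC content came from GENCODE release M21 by symbol, which matched 54510 of 55453 genes and is on a later build, so no gene coordinates are given. Upstream sequences came from RefSeq (GRCm38.p6), which held 6 of the 8 members. The fit was tested on simulated counts for 12411 genes, and over both sexes it found 3.03% of the 1.5-fold, 30.8% of the 2-fold and 76.2% of the 4-fold changes. It found 0, 6.15 and 55.6% of them in males, and 0, 7.69 and 63.5% in females.

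The members, gene lists and tests were chosen with earlier results of these data known. Named were the 8 members, Foxp3, purine genes that passed in a knockout comparison, the 2 most abundant of each purine group, and, for Entpd1, Nt5e and Ampd1, the 3 genes with the highest Pearson correlation over the libraries and the 3 with the highest after group means were subtracted, among genes with a mean log2 CPM of at least 3. 1 gene that this rule names is not reported here, nor drawn, and is kept in the counts. Python 3.11.15 with matplotlib 3.10.9 drew the figures.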

Additional observations from a re-analysis of the deposited data

How the results depend on the processing

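Over both sexes 411 genes were called; DESeq2 called 1129, the fit with the replicate block 1218 (499 higher, 719 lower, against 332 and 79), the fit without female knockout libraries 1 and 3 together 44, and fits that left out 1 library 98 to 2940. The 3 member calls became 0 to 3 with 1 library left out and 1 without female knockout libraries 1 and 3, and the 6 purine calls 11 with DESeq2, 0 without those libraries and 0 to 19 with 1 left out.

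In males 3 genes were called, against 237 with DESeq2, 26 with no low-count filter, 0 with the replicate block, 0 with only male libraries, 11 without female knockout libraries 1 and 3, 0 among plus-strand genes, 0 with the GC trend removed and 0 to 35 with 1 library left out. In females the 25 calls became 703 with DESeq2, 94 with no filter, 50 at 5 CPM in 3 libraries, 0 with the replicate block, 0 with only female libraries, 0 without female knockout libraries 1 and 3, 0 with the GC trend removed and 0 to 3089 with 1 left out. No member was called within a sex; DESeq2 called 1 in males and 1 in females, and with 1 library left out the counts ran from 0 to 1 and from 0 to 3. No other purine gene was called within a sex; DESeq2 called 2 in males and 9 in females, and in females 1 was called with no filter, 1 at 5 CPM, 1 among plus-strand genes and 0 to 17 with 1 library left out.

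Between floxed sexes the 4 calls became 59 with DESeq2, 12 with no filter, 7 with the GC trend removed and 3 to 20 with 1 library left out. The difference between the sexes gave 0 to 1108 calls, and 0 to 2 of members, with 1 library left out. The sign of the floxed sex difference turned with the GC trend removed for Nt5e (0.0384), Adora2a (0.354) and Pnp (0.079). With 1 library left out it ran from -0.3001 to 0.0403 for Adora2a, positive without male floxed replicate 4, and from -0.116 to 0.0882 for Pnp, positive without that library and without female floxed replicate 2 (0.00759). The cause of these changes was not tested.

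Same-numbered libraries deviated together in some cases only, so the numbers were not taken as pairs. Their correlations were 0.44 and -0.61 in males and 0.19, 0.28 and -0.22 in females. Libraries with different numbers gave -0.37 to 0.67 in males and -0.48 to 0.46 in females. The highest were male floxed library 4 with male knockout library 2 (0.67) and male floxed library 2 with male knockout library 3 (0.57). Whether such libraries belong together was not tested. A paired fit of floxed females against floxed males was not possible because the block lies within sex. Low counts limit Ada, Ampd2 and Ak4, and by simulation changes of 1.5-fold were mostly missed.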
